A study of Mus musculus with 3 samples.

Results

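The genes of the major histocompatibility complex (MHC), called H2 in the mouse, were described in 3 RNA libraries of blood-forming stem and progenitor cells. They were chosen as every gene entry whose symbol starts with H2-, together with B2m, Tap1, Tap2, Tapbp, Cd74, Ciita and Nlrc5, which gave 50 of the 24421 genes counted. These were 32 class I heavy chains, 11 class II genes, 4 genes of class I assembly (B2m, Tap1, Tap2 and Tapbp), 2 regulators (Nlrc5 and Ciita) and H2-Ke6, which carries the H2 name but encodes a steroid dehydrogenase.

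The 3 control libraries came from bone marrow of C57BL/6 mice with both Cic alleles flanked by loxP sites (Cic flox/flox), and the mice had received tamoxifen, which activates Cre proteins fused to an oestrogen receptor. The cells, called HSPCs, were sorted as negative for lineage markers (Ter119, Gr-1, B220, CD11b, CD8a and CD4) and positive for c-Kit and Sca-1. The sources used here do not say whether the control mice carried a Cre, which promoter drove it, how old the mice were, or whether each library was a separate animal, so p-values measure only the spread between these libraries, which may be technical. The design names 2 mouse groups, the other of which was not analysed here, so every value below is a level in control cells and no comparison between genotypes was made.

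A class I molecule pairs a heavy chain with beta-2-microglobulin, the product of B2m, and shows peptides made inside the cell to CD8 T cells and natural killer cells. Nearly every nucleated cell carries such molecules. A class II molecule pairs an alpha chain with a beta chain, is loaded with peptides from ingested proteins with the help of the invariant chain Cd74 and of H2-DM, and is carried mainly by B cells, dendritic cells and macrophages. The coactivators Nlrc5, for class I, and Ciita, for class II, act at promoters through factors of the RFX, CREB/ATF and NF-Y families, which bind a conserved run of sequence called the SXY module.

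The gene counts of libraries 1, 2 and 3 totalled 30718562, 25097769 and 30032593. Levels are given as counts-per-million values (CPM) on these totals, mean ± SD over the 3 libraries. Since CPM grows with transcript length, the order of the H2 genes and the ratios between them are given as CPM per kilobase of annotated exons. Differences between genes in plain CPM reflect length as well as level. The exons of all annotated transcripts of a gene were merged, and which transcripts these cells use was not measured. A gene with long exons that are annotated but unused here thus gets too low a value per kilobase. A count of 0 allows up to 0.0977 to 0.120 CPM, depending on the library (3 counts), and this floor and the intervals below cover counting error only. Alignments at more than 1 place made up 15.99% to 17.0% of all entries, and the ribosomal RNA precursor Rn45s took 7.91% to 11.8% of gene counts, the most in library 1. All 6 stem and progenitor markers (Kit, Hlf, Cd34, Flt3, Mecom and Ly6a) lay between 103 and 826 CPM, and none of 4 T cell markers reached 1 CPM. Of 6 markers each, 5 of B cells, 6 of dendritic cells and 4 of macrophages did, as detailed with the class II genes.

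The 50 genes together took 0.616%, 0.587% and 0.657% of gene counts in libraries 1, 2 and 3, with exact Clopper-Pearson 95% intervals of 0.613% to 0.619%, 0.584% to 0.590% and 0.654% to 0.660%. The intervals do not overlap, but they are too narrow, since amplified copies are not independent. The mean share was 0.620% ± 0.0352 (SD, n = 3). Most of these counts were of class I chains and B2m. B2m alone held 56.4% ± 2.31 of these counts, and of the 50 genes, 25 reached a mean of 1 CPM, against 53.1% of all genes (12965 of 24421). The 25 were 9 of the 32 class I heavy chains, 9 of the 11 class II genes, all 4 assembly genes, both regulators and H2-Ke6. Another 14 had no count in any library.

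**Figure D1:**
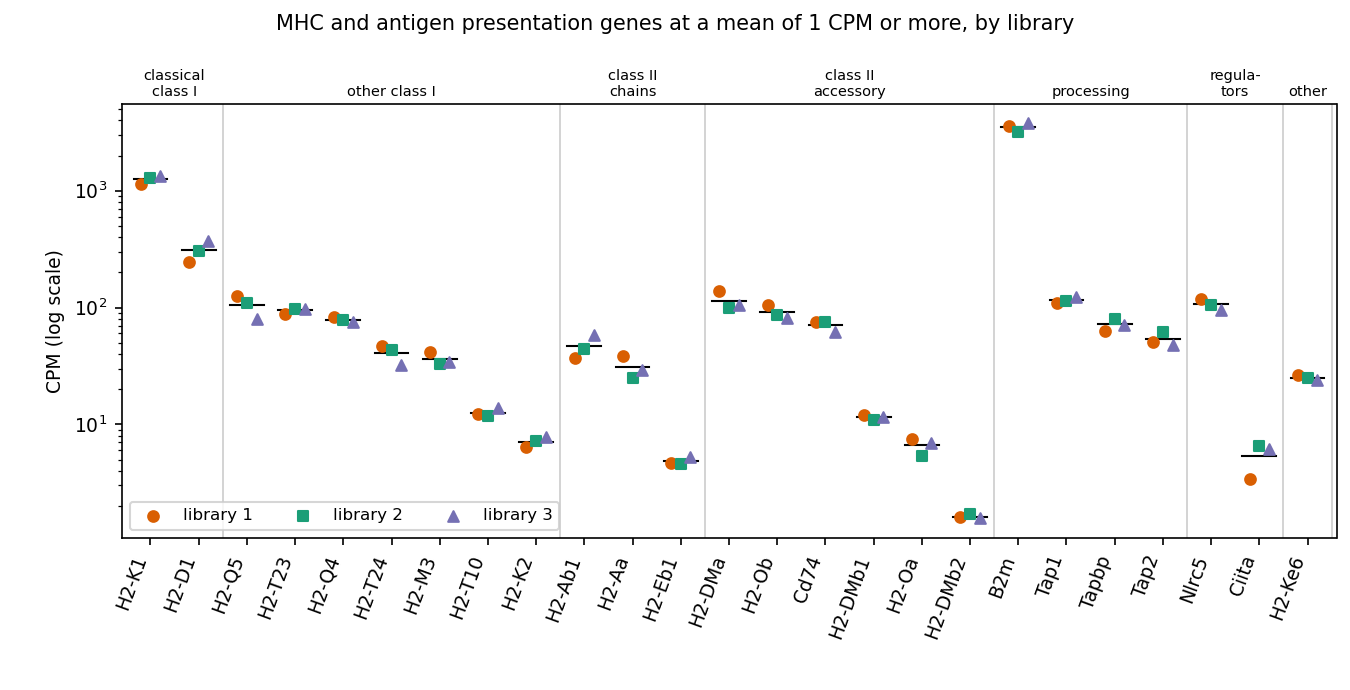
CPM in each of the 3 control libraries (points, log axis) for the 25 H2 and MHC pathway genes that averaged 1 CPM or more, with a bar for the mean, ordered within class. B2m (3501 CPM) and H2-K1 (1261 CPM) stand above all others, and the lowest is H2-DMb2 (1.62 CPM).

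The classical class I heavy chains present peptides to CD8 T cells, and C57BL/6 mice carry H2-K and H2-D but no H2-L. H2-K1 (chromosome 17, 33996017 to 34000347, mm10 coordinates from GENCODE M21) had 1149.8, 1285 and 1347 CPM in libraries 1, 2 and 3, or 1261 ± 101 CPM, rank 40 of all genes. H2-D1 (chromosome 17, 35262730 to 35267499) had 247, 306 and 373 CPM, or 309 ± 62.8 CPM. Both were lowest in library 1 and highest in library 3. Per kilobase H2-K1 was 4.08, 3.69 and 3.17 times as high as H2-D1 in the 3 libraries. H2-K1 held 64.8% ± 0.812 of all class I heavy-chain counts and H2-D1 15.8% ± 2.19. The H2-L entry had 3, 8 and 8 counts, against 7595 to 11193 counts for its close relative H2-D1.

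The heavy chains arose by duplication, and how far their reads can be told apart sets how each entry may be read. The 60 coding bases of H2-K1 from base 493 to 552 (counted from the start codon), which encode part of the alpha-2 domain, are shown as a stretch in which H2-D1 and H2-K1 can be told apart. Capitals mark the bases that differ from H2-K1 in the aligned stretch, read from GENCODE M21 transcripts.
H2-D1: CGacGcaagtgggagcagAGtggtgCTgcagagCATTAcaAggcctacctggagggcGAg
H2-Q5: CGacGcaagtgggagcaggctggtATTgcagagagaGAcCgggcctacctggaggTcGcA
H2-Q7: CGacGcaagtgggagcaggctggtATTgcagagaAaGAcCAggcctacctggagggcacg
H2-T23: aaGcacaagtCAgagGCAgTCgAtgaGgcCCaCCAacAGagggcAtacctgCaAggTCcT
H2-M3: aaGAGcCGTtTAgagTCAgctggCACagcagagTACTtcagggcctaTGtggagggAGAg
H2-K1: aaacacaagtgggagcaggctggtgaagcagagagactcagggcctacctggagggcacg
H2-D1 differs from H2-K1 at 15 of the 60 bases, H2-Q5 at 12, H2-Q7 at 11, and H2-T23 and H2-M3 at 23 each. Other stretches are the same, letter for letter, in more than 1 heavy chain. The longest run that H2-D1 and H2-K1 share is shown whole, and of the longest runs of H2-Q6 with H2-Q7 and of H2-T10 with H2-T22, which are 265 and 134 bases long, the first 120 bases are shown.
H2-D1 and H2-K1: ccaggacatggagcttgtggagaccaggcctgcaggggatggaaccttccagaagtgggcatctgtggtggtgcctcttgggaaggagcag
H2-Q6 and H2-Q7: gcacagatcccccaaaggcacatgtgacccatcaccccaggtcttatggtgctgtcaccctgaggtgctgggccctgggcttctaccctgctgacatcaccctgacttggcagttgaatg
H2-T10 and H2-T22: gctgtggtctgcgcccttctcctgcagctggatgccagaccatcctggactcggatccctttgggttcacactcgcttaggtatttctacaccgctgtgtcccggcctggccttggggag
A read wholly inside such a run cannot be given to 1 gene by its own bases alone, while a read over the window of differences can. Of all 50-base words in the transcripts of H2-K1, 9.63% also occur in another annotated gene, and 12.8% for H2-D1. Most words of both genes were thus not found in another annotated gene. H2-L has no match in the annotation used, so words that H2-D1 or H2-K1 may share with it were not counted. Where the counts of each entry lay along its sequence was not tested.

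Among the other class I heavy chains, 7 of 29 reached 1 CPM. H2-Q5, which GENCODE M21 lists as a polymorphic pseudogene, was the highest, with 125, 109 and 79.9 CPM in libraries 1, 2 and 3 (104 ± 22.7). Of its words, 36.4% occur elsewhere, 25.5% in H2-Q7, and the 2 share a coding run of 166 bases, while H2-Q7 itself had no count in any library. How reads were divided between them was not tested. H2-T23, the Qa-1 heavy chain, which shows leader peptides of other class I chains to natural killer cell receptors, had 88.2, 97.5 and 97.3 CPM (94.3 ± 5.30), and its 3 values lay close together. H2-M3, which presents peptides that begin with N-formyl methionine, had 41.4, 32.6 and 34.0 CPM (36.0 ± 4.75), with library 1 the highest. Only 0.576% of its words occur elsewhere.

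H2-Q4 had 82.6, 78.7 and 75.7 CPM (79.0 ± 3.49), and shares 36.4% of its words with other genes. Of the H2-Q4 exon bases, 19.1% overlap Gm11131. H2-T24 had 46.8, 43.4 and 32.2 CPM (40.8 ± 7.67) and shares 3.17%. H2-T10, a nonclassical chain recognised by some gamma delta T cells, is also listed by GENCODE M21 as a polymorphic pseudogene. Exons of BC023719 overlap 27.1% of the H2-T10 exon bases. H2-T10 had 12.2, 11.8 and 13.7 CPM (12.6 ± 1.00). Its close relative H2-T22 had no count in any library, and 50.4% of the words of H2-T10 and 53.5% of those of H2-T22 occur elsewhere, so the H2-T10 level is uncertain. The pseudogene H2-K2 had 6.35, 7.25 and 7.79 CPM (7.13 ± 0.729).

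The remaining heavy chains were near or at 0. By series, 1 of 12 M genes, 2 of 9 Q genes and 3 of 6 T genes reached 1 CPM. The 13 heavy chains with no count at all were 7 M genes (H2-M1, H2-M2, H2-M9, H2-M10.3, H2-M10.4, H2-M10.5 and H2-M11), 4 Q genes (H2-Q2, H2-Q6, H2-Q7 and H2-Q9) and 2 T genes (H2-T9 and H2-T22). Another 10 had between 1 and 9 counts in their highest library, among them H2-T3, which encodes the thymus leukaemia antigen, and H2-Q10, a secreted chain of the liver. These zeros differ in what they can show. H2-M11 shares 0.00% of its words with another gene and H2-M9 0.903%, whereas H2-Q6 shares 34.97% and H2-Q7 26.5%. The entries H2-L, H2-Q8, H2-Q9 and H2-T9 have no match in the annotation used, so their likeness to others was not measured.

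The partners of the heavy chains were abundant in every library. B2m had 3568, 3155 and 3781 CPM in libraries 1, 2 and 3 (3501 ± 318, rank 6 of all genes), or 4071 ± 369.8 CPM per kilobase, with library 2 the lowest. Per kilobase B2m was 6.05, 4.97 and 5.76 times as high as all class I heavy chains summed. Tap1 and Tap2 are the chains of the pump that brings peptides into the endoplasmic reticulum. Tap1 had 108, 113 and 124 CPM (115 ± 8.18), and Tap2 had 50.9, 61.8 and 48.1 CPM (53.6 ± 7.25). Per kilobase Tap1 was 1.47, 1.26 and 1.78 times as high as Tap2. Tapbp, or tapasin, which holds the pump to the empty heavy chain, had 63.4, 79.9 and 71.5 CPM (71.6 ± 8.26). Exons of other genes overlap 29.0% of the Tapbp exon bases and 18.5% of those of Tap2, and as no source used here states whether the counting used strand, reads there cannot be told apart.

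H2-Ke6, the gene that is no MHC chain, had 26.3, 24.7 and 23.8 CPM (24.9 ± 1.28) and was left out of the class sums. Its level is uncertain, since 86.4% of its exon bases overlap the gene model Gm20427.

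The class II presenting chains summed to far less than the class I heavy chains, though H2-Ab1 and H2-Aa ranked 4541 and 5907 of all 24421 genes by CPM. H2-Ab1, the beta chain of I-A, had 37.2, 44.3 and 58.6 CPM in libraries 1, 2 and 3 (46.7 ± 10.9), and its partner H2-Aa had 38.7, 24.9 and 29.3 CPM (31.0 ± 7.03). H2-Ab1 was lowest in library 1, where H2-Aa was highest. Per kilobase H2-Aa was 0.702, 0.380 and 0.338 times H2-Ab1. H2-Eb1, the beta chain of I-E, had 4.69, 4.62 and 5.26 CPM (4.86 ± 0.351), and H2-Eb2 had 3, 2 and 11 counts. C57BL/6 mice make no I-E alpha chain, and its entry, H2-Ea-ps, had no count in any library. In bulk RNA of sorted cells, few cells with much class II RNA and many cells with little cannot be told apart.

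The accessory genes of class II lay both above and below its presenting chains. Per kilobase, Cd74 (42.3 ± 4.73) and H2-DMa (33.2 ± 6.18) were above H2-Ab1 (18.2 ± 4.24), and H2-Ob (16.9 ± 2.34) was close to it. H2-DMb1 (6.83 ± 0.283), H2-Oa (4.69 ± 0.789) and H2-DMb2 (0.930 ± 0.0449) had means below that of H2-Aa (8.15 ± 1.85). In plain CPM the accessory genes summed to 341, 279 and 268 in libraries 1, 2 and 3, and the presenting chains to 80.7, 74.0 and 93.5. H2-DMa, a chain of the peptide exchange factor H2-DM, had 139, 99.5 and 105 CPM (114 ± 21.3), and 10.44% of its exon bases overlap Brd2. Its partner chains are encoded by H2-DMb1 and H2-DMb2. H2-DMb1 had 11.9, 10.997 and 11.5 CPM (11.5 ± 0.476) and H2-DMb2 had 1.60, 1.71 and 1.56 CPM (1.62 ± 0.0784). H2-DMa was 5.66, 4.41 and 4.43 times as high as H2-DMb1 per kilobase. H2-DMb1 and H2-DMb2 are near copies that have 22.7% and 25.9% of their words in another gene, mostly each other, so their split is uncertain.

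H2-Ob and H2-Oa form H2-DO, which restrains H2-DM. H2-Ob had 105, 86.0 and 81.4 CPM (90.8 ± 12.6) and H2-Oa had 7.55, 5.38 and 6.86 CPM (6.60 ± 1.11). Exons of BC051537 overlap 22.8% of the H2-Oa exon bases, and 15.5% of its words occur there, so its level is uncertain. H2-Ob was 3.64, 4.18 and 3.10 times as high as H2-Oa per kilobase, so in both accessory dimers the entry of 1 chain lay well above the other in every library. Cd74, the invariant chain, had 75.8, 75.4 and 61.9 CPM (71.0 ± 7.93), and per kilobase was 4.43, 6.85 and 4.78 times as high as H2-Aa. Of the 6 accessory genes, 5 were highest in library 1, and H2-DMb2 was highest in library 2.

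Class I exceeded class II in every library. Class I heavy chains summed to 1800.1, 1972 and 2061 CPM, and the 11 class II genes to 421, 353 and 362 CPM. On that scale class I was 4.27, 5.59 and 5.70 times as high, a mean log2 ratio of 2.36 ± 0.23, and per kilobase it was 4.72, 5.80 and 5.95 times as high. Set against the presenting chains of class II alone, class I was 25.3, 28.2 and 22.9 times as high per kilobase. This ratio sums chosen genes, so it was not tested, and with 3 libraries a sign-flip permutation test could not have given a p under 0.25.

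**Figure D2:**
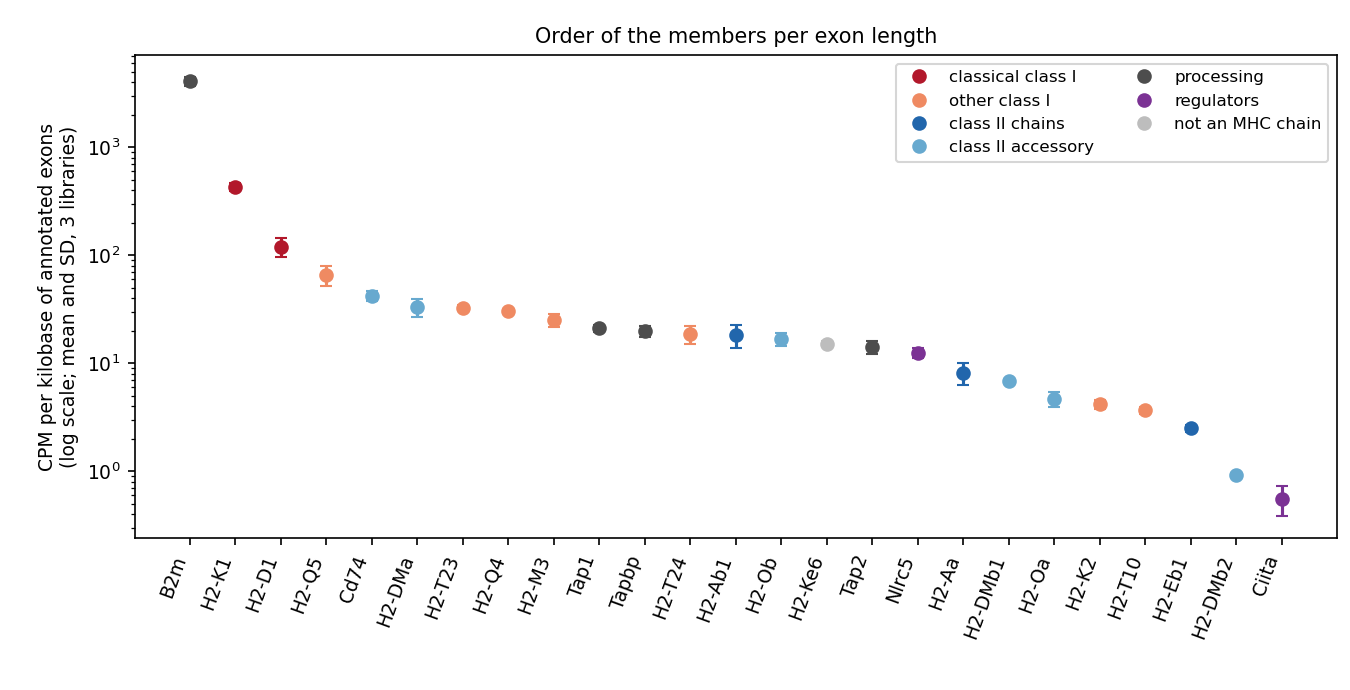
CPM per kilobase of annotated exons (log axis) for the same genes ordered by mean, shown as mean and SD over the 3 libraries and coloured by class. The means run from 4071 for B2m to 0.560 for Ciita, and the error bars of many neighbours in the middle of the order overlap.

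Ordered by mean CPM per kilobase, the sequence ran B2m, H2-K1, H2-D1, H2-Q5, Cd74, H2-DMa, H2-T23, H2-Q4, H2-M3, Tap1, Tapbp, H2-T24, H2-Ab1, H2-Ob, H2-Ke6, Tap2, Nlrc5, H2-Aa, H2-DMb1, H2-Oa, H2-K2, H2-T10, H2-Eb1, H2-DMb2 and Ciita. A pair of neighbours was called separated where all 3 libraries gave the same sign and the mean log2 difference exceeded its SD, which held for 13 of 24 pairs. The first 6 genes, from B2m to H2-DMa, were each separated from the next below among them. From H2-M3 down to H2-Ob, no neighbours were separated: H2-M3, Tap1, Tapbp, H2-T24, H2-Ab1 and H2-Ob lay between 25.05 and 16.9 CPM per kilobase. Neither were H2-DMa from H2-T23, nor H2-T23 from H2-Q4, nor H2-Ke6, Tap2 and Nlrc5 in turn, nor H2-Aa from H2-DMb1, nor H2-Oa from H2-K2.

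The regulators of the 2 classes differed in level. Nlrc5, the class I coactivator, had 117, 106 and 95.5 CPM in libraries 1, 2 and 3 (106 ± 10.9). Ciita, the class II coactivator, had 105, 163 and 183 counts, or 3.42, 6.49 and 6.09 CPM (5.34 ± 1.67), and was the lowest of the 25 genes per kilobase. Per kilobase Nlrc5 was 38.5, 18.3 and 17.6 times as high as Ciita, and the ratio was highest in library 1, where Ciita was lowest. Of the factors through which both act, all 8 listed reached 1 CPM, with a median of 70.4 CPM. Nfya (269 ± 20.01), Creb1 (235 ± 9.13), Atf1 (141 ± 6.12), Rfx5 (86.6 ± 4.43) and Nfyb (54.2 ± 3.50) had the highest CPM values, not corrected for length, and Rfxap (12.9 ± 1.86) and Rfxank (9.99 ± 4.33) the lowest.

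RefSeq promoter sequences of the GRCm38.p6 assembly, from 250 bases before to 50 bases after the start, were found for 34 of the 50 genes. They were searched on both strands for 4 short motifs, beside all 32851 promoters of the same length. A gene was counted if any of its starts had a match, whereas the share of all promoters counts each promoter singly. Many of the 34 are heavy-chain genes, which arose by duplication, so their matches to any motif are not independent. The core of the Y box, ATTGG, which NF-Y binds, was on either strand in 31 of the 34, against 37.4% of all promoters. It was in all 16 of those with a mean of 1 CPM or more and in 15 of 18 of those below, a difference that was not tested. In Tap1, H2-T23, H2-M2, H2-M11, H2-M10.2, H2-M10.3, H2-M10.5 and H2-M10.6 the only match was on the strand opposite to the gene. H2-DMa was counted through 1 of its starts, as the other had no match. The core of the X2 box, TGACG, which CREB/ATF factors bind, was on either strand in 14 of the 34, against 20.8% of all. These were 7 of the 16 and 7 of the 18, but the strands differed. All 7 at 1 CPM or more had it on the gene's own strand, and below 1 CPM only H2-Q7 and H2-T22 did. In H2-M2, H2-M10.1, H2-M10.3, H2-M10.4 and H2-M10.5 it was on the other strand only. This difference was not tested. The NF-kappaB site GGGATTCCC was in 4 (H2-K1, H2-D1, H2-Q6 and H2-Q7), against 0.353% of all. All 4 are heavy-chain genes, which arose by duplication, so their matches are not independent of each other. GAAANNGAA, 1 form of the interferon response motif, was in 3 (B2m, H2-T22 and H2-T23), against 8.56% of all. Other forms of this motif were not searched, so the count does not show that the other genes lack one. Among the 34 genes, matches overlapped only in H2-Aa.

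In 6 of the 34 genes TGACG was followed on the same strand by ATTGG with 18 to 22 bases between, an arrangement found in 0.152% of all promoters (50 of 32851). This arrangement was chosen after the positions had been seen, and the heavy-chain genes among the 6 are related by duplication, so their matches are not independent. The spacing was 20 bases in B2m, H2-K1, H2-D1 and H2-M3, 21 in H2-Aa and 19 in H2-Q7. Of the 6 genes, 5 had a mean between 31.0 and 3501 CPM, and H2-Q7 had no count. The 200 bases before the start of those 5 genes are shown because they carry both motifs at this spacing. Capitals mark matches of the 4 motifs on either strand, and RefSeq lists 2 starts for H2-K1, the window of only 1 of which is shown.
B2m, chr2:122147487-122147686, plus strand: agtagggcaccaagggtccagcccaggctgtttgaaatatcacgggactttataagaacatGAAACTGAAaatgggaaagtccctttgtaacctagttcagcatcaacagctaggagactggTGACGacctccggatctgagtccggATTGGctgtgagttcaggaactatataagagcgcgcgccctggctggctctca
H2-K1, chr17:34000334-34000533, minus strand: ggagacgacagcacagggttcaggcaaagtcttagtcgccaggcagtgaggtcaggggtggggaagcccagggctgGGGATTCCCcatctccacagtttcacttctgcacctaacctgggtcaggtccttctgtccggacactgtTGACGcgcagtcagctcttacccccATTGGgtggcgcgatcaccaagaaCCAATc
H2-D1, chr17:35262894-35263093, plus strand: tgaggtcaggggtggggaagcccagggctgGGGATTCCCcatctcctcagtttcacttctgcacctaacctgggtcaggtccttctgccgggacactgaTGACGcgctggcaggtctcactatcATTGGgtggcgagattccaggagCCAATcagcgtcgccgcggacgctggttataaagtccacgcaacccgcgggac
H2-M3, chr17:37270034-37270233, plus strand: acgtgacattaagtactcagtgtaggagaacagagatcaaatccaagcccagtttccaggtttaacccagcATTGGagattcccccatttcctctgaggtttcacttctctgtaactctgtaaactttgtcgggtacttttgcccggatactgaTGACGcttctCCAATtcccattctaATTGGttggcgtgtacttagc
H2-Aa, chr17:34287824-34288023, minus strand: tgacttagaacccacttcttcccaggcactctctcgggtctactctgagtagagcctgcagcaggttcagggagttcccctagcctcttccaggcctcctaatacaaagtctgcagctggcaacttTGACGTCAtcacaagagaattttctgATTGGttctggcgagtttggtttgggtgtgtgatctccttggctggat
In H2-Aa the capitals TGACGTCA are TGACG and its reverse complement overlapping. A match of letters is a description, and no binding was measured.

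**Figure D3:**
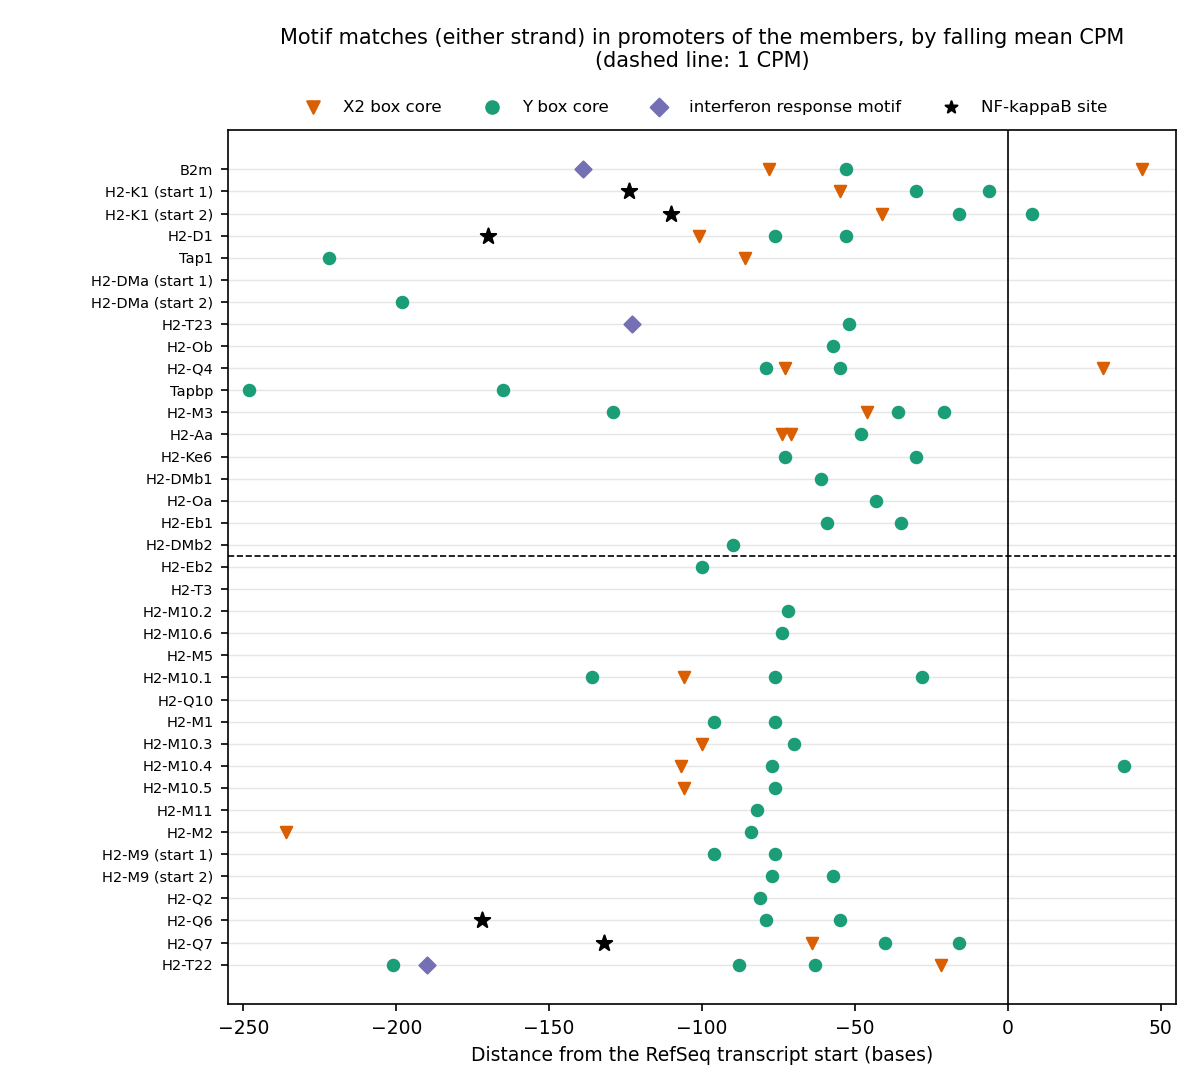
Matches of the 4 motifs on either strand (symbols) by distance in bases from the RefSeq start (vertical line) in the promoters of the 34 genes, a line for each start, by falling mean CPM with a dashed line at 1 CPM. The Y box core is found both above the dashed line (16 of 16 genes) and below it (15 of 18), while the NF-kappaB site is seen in 4 genes.

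Each gene was compared between the 3 libraries by a chi-square test of its counts, which asks whether libraries differ beyond counting noise. Of the 25 genes, 19 (76%) passed at a Benjamini-Hochberg adjusted p under 0.05, beside 82.6% of all 12965 genes tested, so the members' share is near the background. The 6 that did not pass were H2-DMb1, H2-DMb2, H2-Eb1, H2-K2, H2-Ke6 and H2-T10, with means from 1.62 to 24.9 CPM. Without library 1, 12 genes passed, as did 6660 of all genes. Ciita, whose level in library 1 was the lowest, passed with an adjusted p of 4.06e-07 in this chi-square test. In edgeR's variability test, described next, its adjusted p was 0.984.

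A second test asked whether a gene spread more between libraries than genes of its abundance, with edgeR's quasi-likelihood fit. None of the 25 genes passed, beside 0.00771% of all genes tested, which is the neutrophil elastase gene Elane alone. At an unadjusted p under 0.05 there were 2 of the 25, H2-D1 and H2-Q5, beside 4.998% of all genes. Both had an adjusted p of 0.984 in edgeR's test. H2-D1 was highest in library 3 and H2-Q5 in library 1. With edgeR's TMM scaling or DESeq2 size factors, 3 of the 25 had an unadjusted p under 0.05, beside 4.54% of all genes, and again none passed after adjustment.

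The range of a gene over the 3 libraries had a median of 0.294 on the log2 scale for the 25 genes and 0.355 for all genes tested. None of the 25 ranged over more than 1 log2 unit, while 8.70% of all genes did. These sets were not matched for abundance, and the difference between them was not tested. Library 1 was the highest for 12 of the 25 (48% against 31.9% of all genes), library 2 for 5 and library 3 for 8. The 12 were H2-Q4, H2-Q5, H2-T24, H2-M3, H2-Aa, H2-DMa, H2-DMb1, H2-Oa, H2-Ob, Cd74, Nlrc5 and H2-Ke6. Those highest in library 3 were B2m, H2-K1, H2-D1, H2-K2, H2-T10, H2-Ab1, H2-Eb1 and Tap1, so neither class moved as a whole.

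**Figure D4:**
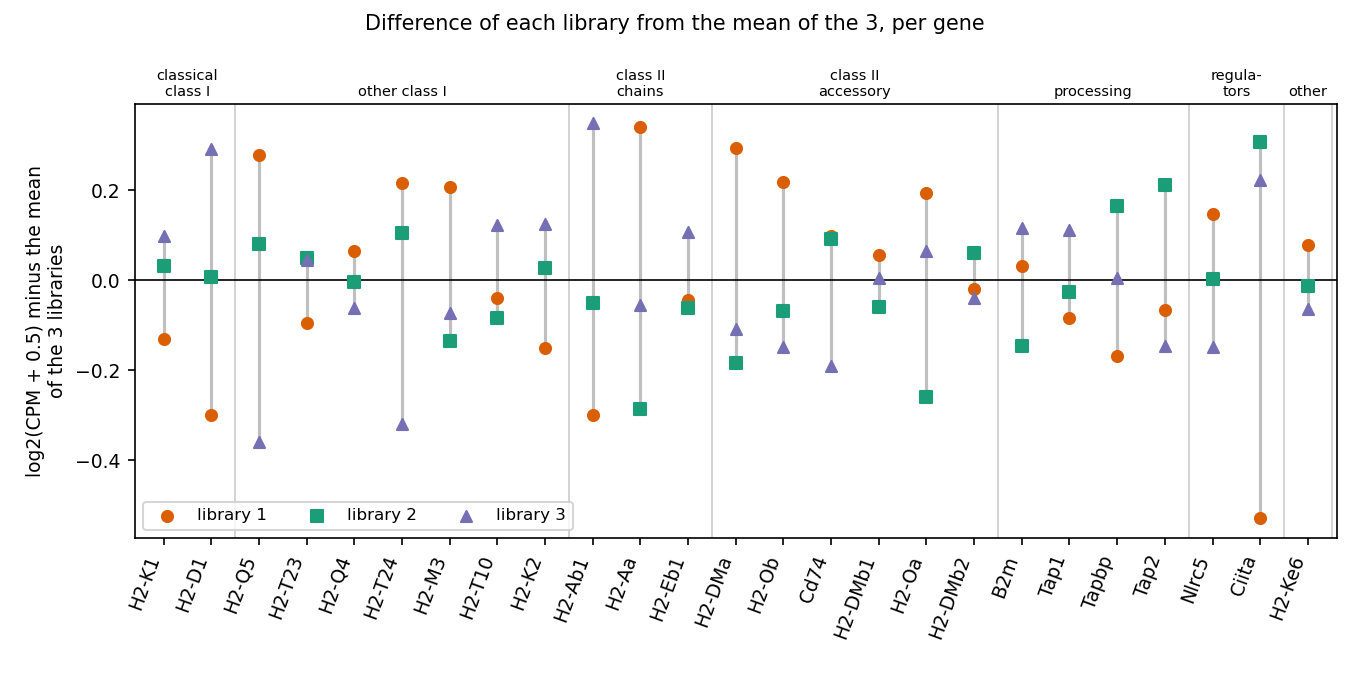
Difference of log2(CPM + 0.5) in each library (symbols) from its mean over the 3 libraries, for the 25 genes at 1 CPM or more, with a line for the range. H2-D1 and H2-Ab1 are highest in library 3, whereas H2-Q5 and H2-DMa are highest in library 1.

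Markers of cells that carry class II were measured beside these genes. The 6 B cell markers summed to 46.8, 49.9 and 52.0 CPM in libraries 1, 2 and 3, and 5 of them reached 1 CPM, with Cd79b at 24.6 ± 2.63, Cd79a at 11.6 ± 1.06 and Ms4a1 at 1.37 ± 1.08 CPM. Without library 1, Ms4a1 averaged 0.801 CPM and 4 of the 6 reached 1 CPM. All 6 dendritic cell markers reached 1 CPM, with sums of 16.5, 19.01 and 22.2 CPM and values from 1.22 CPM for Zbtb46 to 5.71 CPM for Xcr1, though 5 did without library 2 or without library 3. Of 6 macrophage markers, 4 did, with sums of 53.5, 54.8 and 75.3 CPM. Cd68 was at 28.4 ± 7.03 and Csf1r at 26.3 ± 9.98 CPM, but Adgre1, which encodes F4/80, was at 0.288 ± 0.216 and C1qa at 0.114 ± 0.0708 CPM. All 3 sums were lowest in library 1 and highest in library 3, an order shared by H2-Ab1 but not by H2-Aa, Cd74 or H2-DMa, which were highest in library 1. The part of such cells in the class II levels was not tested.

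Genes that supply peptides to class I or take part in its folding and loading were expressed throughout. All 10 immunoproteasome and peptide-loading genes passed 1 CPM, with a median of 169.7 CPM. The median of all 24421 genes was 1.73 CPM, and neither is corrected for length. The chaperone Canx was at 657 ± 107 CPM, the proteasome activator Psme1 at 451 ± 14.4 CPM, Pdia3 at 375 ± 57.2 CPM, Calr at 339.7 ± 73.9 CPM and the trimming peptidase Erap1 at 179 ± 7.15 CPM. Psmb10 was at 41.0 ± 8.94 CPM and Tapbpl at 27.1 ± 2.33 CPM. Of the 2 other immunoproteasome subunits, Psmb8 was at 161 ± 13.0 CPM and Psmb9 at 141 ± 19.2 CPM.

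Of the class II supply genes, all 7 with an entry reached 1 CPM, with a median of 25.5 CPM. The lysosomal proteases Ctsd (215 ± 17.0) and Ctsb (129.9 ± 7.13) had the highest CPM. Ctss, which trims the invariant chain, was at 43.5 ± 4.07 CPM. Ifi30, a lysosomal thiol reductase, was at 5.64 ± 2.03 CPM, and March1, a ligase that removes class II from the surface, was at 0.553, 1.79 and 0.666 CPM in libraries 1, 2 and 3. March1 passed 1 CPM only through library 2, without which it averaged 0.610 CPM and 6 of the 7 passed.

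Interferon gamma is the best known inducer of both classes, and 8 of 9 genes of its pathway reached 1 CPM, with a median of 88.3 CPM. Jak1 was at 431 ± 19.3, Jak2 at 123 ± 13.2, Irf2 at 91.95 ± 5.26 and the receptor chain Ifngr1 at 88.3 ± 7.85 CPM. The feedback inhibitor Socs1 was at 0.820 ± 0.444 CPM, passing 1 CPM when library 2 was left out (9 of 9 genes), and the receptor chain Ifngr2 was at 32.6 ± 5.20 CPM.

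Outside the H2 complex, 6 of 7 class I-like genes passed 1 CPM (median 6.60 CPM). Cd1d1, which presents lipids, was at 23.7 ± 2.04 CPM, Procr, a receptor known as a marker of stem cells, at 22.7 ± 2.54 CPM, and Mr1, which presents vitamin B metabolites, at 22.3 ± 3.57 CPM. Azgp1 had no count in any library. Of 8 ligands of the natural killer cell receptor NKG2D, 2 reached 1 CPM, Ulbp1 at 19.3 ± 3.82 CPM and H60b at 2.41 ± 1.67 CPM. H60b was highest in library 2 and averaged 1.45 CPM without it. Of 6 costimulation genes, 4 reached 1 CPM. Cd274, which encodes the inhibitory ligand PD-L1, was at 87.3 ± 5.99 CPM and Pdcd1lg2, which encodes PD-L2, at 19.3 ± 3.53 CPM. Cd40, a receptor that activates presenting cells, was at 0.695 ± 0.0508 CPM and the activating ligand Cd80 at 0.239 ± 0.211 CPM, or 0.159 CPM without library 3. In all, 45 of the 55 related genes reached 1 CPM, beside 53.1% of all genes. The lists hold chosen genes, so the difference was not tested.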

How the data were processed

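RNA was sequenced from 3 control libraries of sorted mouse bone marrow HSPCs. Per the labels' protocols, the NuGEN Ovation kit turned 10 ng of RNA into amplified cDNA with poly(A) and random primers, and inserts were 400 bp. Amplified copies are counted more than once, so intervals understate the error. The deposited files hold raw counts per gene symbol without normalization. Names found in the submitters' processing notes, without roles, are mm10, HTSeq, TopHat2 2.0.9 and DESeq2, and neither the gene model nor the use of strand is given in the sources used here.

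From these, CPM was computed on gene totals, without the 92 ERCC and 5 category entries. The chi-square test and edgeR's quasi-likelihood variability test (intercept only, robust) covered every gene averaging 1 CPM or more, with Benjamini-Hochberg adjustment over all of them. Both were run on counts simulated from the models that the tests assume, which does not show how they perform on these libraries. The planned order of levels was by CPM, with differences of log2(CPM + 0.5). The text gives it per kilobase, since levels between genes are compared per length. Exon lengths, overlaps, coding sequences and 50-base words came from GENCODE M21 (GRCm38, the assembly of mm10), which matched 46 of 50 symbols, and promoters from RefSeq. Members and lists were chosen with earlier results of these data known. Every member at 1 CPM or more is named, and of each related list up to 5 of the highest and 2 of the lowest, while Psmb8 and Psmb9 were added after their values were seen. Single values of a few listed genes are not reported here. Software was R 4.3.3, edgeR 4.0.16, DESeq2 1.42.0, Python 3.11.15, NumPy 2.4.6, SciPy 1.17.1 and pandas 2.3.3.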

Additional observations from a re-analysis of the deposited data

Results flagged for a closer look

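Counts were present in entries that none of the comparisons use. The ERCC entries, named as the synthetic spike-in RNAs of that name, held 455900, 239355 and 174913 counts in libraries 1, 2 and 3, above the 3 counts that a count of 0 allows. The labels' protocols do not mention a spike-in. The H2 levels were scaled on gene counts alone, and no level was set against the spike-ins.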

How the results depend on the processing

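No paired analysis was possible because there is 1 group. The number of H2 and pathway genes past the chi-square test ranged from 12 to 17 with each library left out, and that of all genes from 6660 to 8709, with 2 libraries compared in place of 3. Past the variability test there were from 0 to 30 genes of all with a library left out and 4 at a mean of at least 5 CPM, and 0 of the H2 and pathway genes under every alternative run, with 1 to 4 at an unadjusted p under 0.05 in edgeR. For all genes tested that share was 4.28% to 5.84%, and without library 1 it was 4 of 25 genes beside 757 of 12963. Chosen after the data were seen, class II presenting chains alone gave a class I to class II log2 ratio of 4.56, and classical class I chains alone gave 2.05. Without Rn45s in the totals, the genes took 0.684% of gene counts. Of 175 alternative levels of single genes, 160 moved by less than the SD between libraries and 15 by more, all of them in totals without Rn45s or without ribosomal protein genes, which are smaller by construction. No level moved by more than 1.18 times. The count of 25 genes at 1 CPM moved by less than 1.5 times under each scaling and with each library left out. Depth limits the lowest entries, where a count of 0 allows up to 0.120 CPM.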
